A study of Mus musculus with 32 samples.

Results

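Glycine and proline tRNAs are encoded by 41 of the 401 mouse tRNA loci whose chromatin accessibility was tabulated. Every locus named tRNA-Gly or tRNA-Pro was taken, apart from 1 tRNA-Pro-CGG locus that was left out, and the choice used names only. The 26 glycine loci comprised 13 with the anticodon GCC, 6 with CCC and 7 with TCC. The 15 proline loci comprised 6 with AGG, 2 with CGG and 7 with TGG. The tables name loci by isoacceptor, and the first number of a name marks loci that share 1 mature tRNA sequence (an isodecoder), as in tRNA-Gly-GCC-2-1 and tRNA-Gly-GCC-2-2.

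Accessibility was measured by ATAC-seq, in which a transposase cuts open chromatin, on nuclei from a piece of brain or liver tissue. The mice were male C57BL/6N, and the paper names no brain region for these samples. Wild-type animals were compared with littermate- and age-matched animals homozygous for a CRISPR deletion of 1 phenylalanine tRNA gene, namely tRNA-Phe-GAA-1-1 (Phe11), tRNA-Phe-GAA-2-1 (Phe21) or tRNA-Phe-GAA-3-1 (Phe31). The 32 libraries came from 5 wild-type brains, 7 wild-type livers, 4 brains and 4 livers of Phe11, and 3 brains and 3 livers each of Phe21 and Phe31. No glycine or proline locus was a target of the deletion in any group. In bulk tissue, a smaller share of cells of 1 type and less open chromatin per cell cannot be told apart.

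A tRNA gene is transcribed by RNA polymerase III from promoter elements inside the gene itself, the A and B boxes, so open chromatin over the gene body reports on the promoter region. Glycine GCC tRNA reads the codons GGC and GGU, CCC tRNA reads GGG and TCC tRNA reads GGA. Proline AGG tRNA, whose first anticodon base is modified to inosine, reads CCU and further CCN codons, CGG tRNA reads CCG and TGG tRNA reads CCA. Both amino acids are abundant in collagen, and glycine GCC tRNA is a well-known source of tRNA fragments in mammalian tissue.

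At the deleted gene, the brain knockouts kept 34.0% (Phe11), 7.02% (Phe21) and 4.82% (Phe31) of the wild-type signal, and the liver knockouts 14% (Phe11) and 6.83% (Phe21). The liver libraries labelled Phe31 went against their label, with 75.4% of the wild-type signal at tRNA-Phe-GAA-3-1 but 9.95% at tRNA-Phe-GAA-1-1, and they are called the libraries labelled Phe31 throughout. Brain libraries held 20315 to 35565 reads over all tRNA loci, liver libraries 4719 to 23754, and the glycine and proline loci took 7.03% to 7.96% of them in brain and 7.34% to 8.62% in liver. Wild-type livers 1 and 22 differed by less than sampling noise (chi-square over degrees of freedom 0.441, against at least 0.741 in every other pair of the same group) and were counted as 1 sample in means and SDs. The next lowest ratios were also under 1, at wild-type brains 3 and 18 (0.741), wild-type livers 3 and 24 (0.744) and Phe11 livers 6 and 20 (0.764). These libraries were kept as separate samples. The 3 wild-type livers tabulated with the libraries labelled Phe31 stood apart from the 4 others, with the same ratio between 2.19 and 2.59.

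In wild-type tissue a few loci of each anticodon held much of the accessibility. Levels below are normalised read counts on 1 scale over both tissues. They can be compared between loci because every counting window has nearly the same length. The 10 highest of the 41 loci held 65.0% of their summed level in brain and 62.7% in liver. The members' median was 15.0 in brain and 20.1 in liver, beside 20.5 and 16 over all 401 loci. A mean below 10 was found for 18 of the 41 loci in brain and 13 in liver. A read was present in every brain library at 34 loci and in every liver library at 29.

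**Figure D1:**
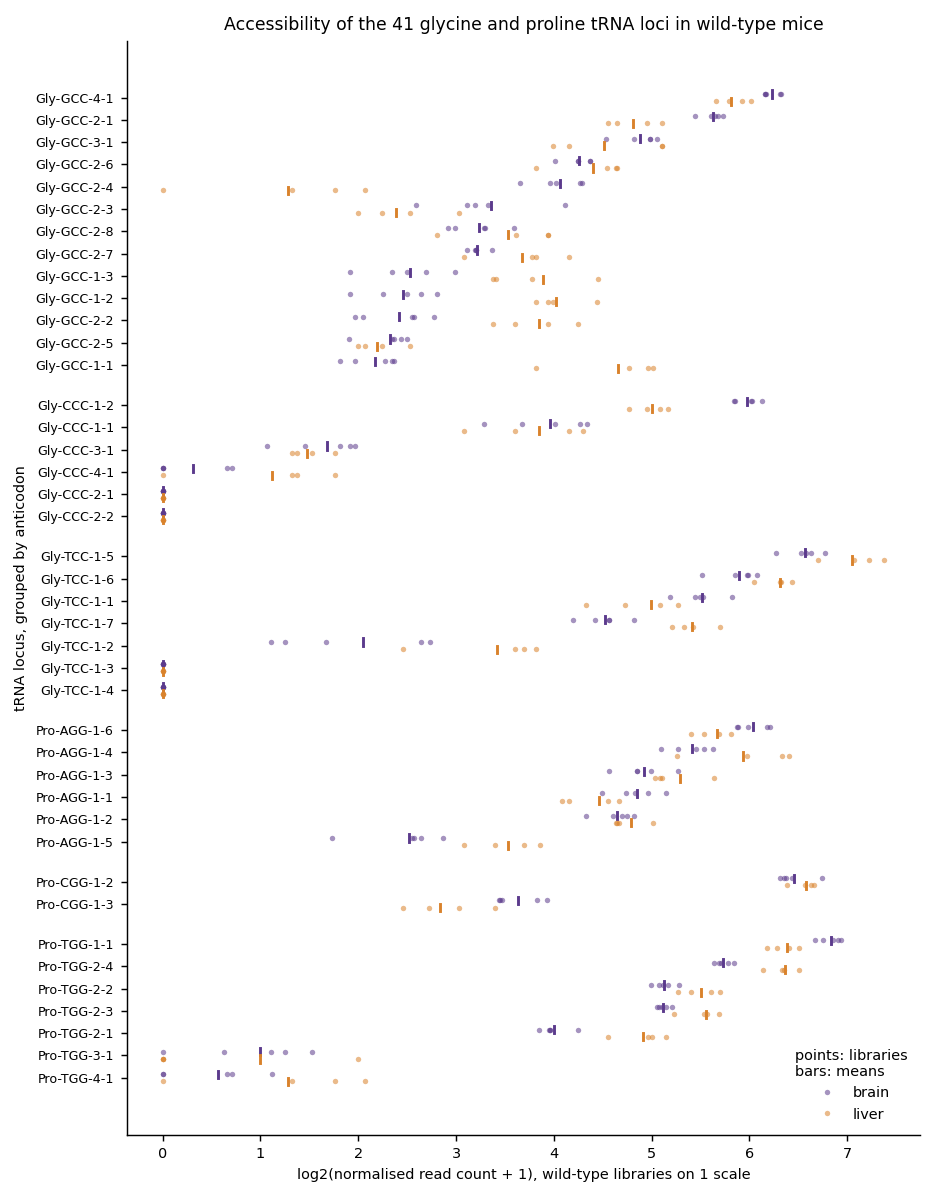
Log2 of the normalised read count plus 1 (x axis) at the 41 glycine and proline tRNA loci in wild-type brain and liver, grouped by anticodon, with a point for each library and a bar for the mean. The normalised counts ran from no read at 4 loci to above 100 at tRNA-Pro-TGG-1-1 in brain and at tRNA-Gly-TCC-1-5 in liver.

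No read fell in any of the 32 libraries on tRNA-Gly-CCC-2-1, tRNA-Gly-CCC-2-2, tRNA-Gly-TCC-1-3 and tRNA-Gly-TCC-1-4, all glycine loci. These 4 were 9.76% of the members, and 19 of all 401 loci (4.74%) were likewise without a read. A count of 0 among the 400474 brain reads allows a share of up to 0.000749%, and among the 172290 liver reads up to 0.00174%, as 3 reads over the total and for counting error only. Reads that map equally well to near-identical copies can be lost or moved between them in such counts, so a level of 0, like the split of a level among copies of 1 mature sequence, is uncertain.

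Among the 13 loci of glycine GCC, tRNA-Gly-GCC-4-1, the single locus of its isodecoder, was the highest in both tissues. Its level was 70.4, 79.3, 78.4, 70.8 and 70.6 in wild-type brains 1, 2, 3, 16 and 18, and 63.7, 54.3, 59.9 and 49.4 in wild-type livers 1, 3, 22 and 24. Every brain was above every liver. In brain tRNA-Gly-GCC-2-1 came next at 48.4 ± 3.70 (SD, n = 5), followed by tRNA-Gly-GCC-3-1 at 28.5 ± 4.00. In liver the order below the top was less sharp, with tRNA-Gly-GCC-2-1 at 27 ± 4.03 (n = 3), tRNA-Gly-GCC-1-1 at 24.3 ± 9.79 and tRNA-Gly-GCC-3-1 at 21.8 ± 10.2, neighbours that lay within 1 SD of each other. The lowest GCC level in brain was that of tRNA-Gly-GCC-1-1, 3.5 ± 0.740, and in liver that of tRNA-Gly-GCC-2-4, 1.43 ± 1.40. The top pair held 52.8% of the GCC sum in brain and 37.0% in liver.

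The 8 loci that share the GCC-2 mature sequence ran from 4.01 to 48.4 in brain, a 12.1-fold range, and from 1.43 to 27 in liver, an 18.9-fold range. The 3 loci of GCC-1 were close to each other instead, at 3.5 to 4.78 in brain and 13.8 to 24.3 in liver. All 3 were thus higher in the liver mean than in the brain mean. The locus tRNA-Gly-GCC-2-4 had the opposite order, at 14.6, 18.6, 15.3, 11.6 and 18.3 in the 5 brains and 3.18, 0, 2.4 and 1.5 in the 4 livers, from 130 reads in brain and 4 in liver. No liver reached any brain, but the locus fell under the filter on mean level, and the difference was not tested.

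Glycine CCC rested on few loci. Of the 6, tRNA-Gly-CCC-1-2 stood at 61.9 ± 5.30 in brain and 31.2 ± 1.54 in liver and tRNA-Gly-CCC-1-1, its copy, at 14.6 and 13.4. This pair held 96.9% of the CCC sum in brain and 93.8% in liver. Besides the pair without reads, tRNA-Gly-CCC-3-1 (2.21 in brain, 1.79 in liver) and tRNA-Gly-CCC-4-1 (0.242 and 1.16) were close to the level of single reads.

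Glycine TCC had 7 loci with 1 mature sequence and a wide spread. The locus tRNA-Gly-TCC-1-5 measured 93.6 ± 11.6 in brain and 131.1 ± 27.1 in liver and tRNA-Gly-TCC-1-6 measured 58.4 ± 8.37 and 78.7 ± 6.56, and together they held 68.5% and 71.9% of the TCC sum. Next were tRNA-Gly-TCC-1-1 (44.6 ± 7.27 in brain, 30.9 ± 7.77 in liver) and tRNA-Gly-TCC-1-7 (22.1 ± 3.66 and 41.6 ± 2.07), whose order was opposite in the tissues with these livers. The wild-type livers tabulated with the libraries labelled Phe31 had the order of brain. On their own scale tRNA-Gly-TCC-1-1 measured 18.1, 10.2 and 19.8 in them and tRNA-Gly-TCC-1-7 10.7, 9.38 and 15.6. The lowest locus with reads was tRNA-Gly-TCC-1-2, at 3.13 and 9.72.

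The 6 loci of proline AGG also share 1 mature sequence. In brain they ran from 4.73 ± 1.46 at tRNA-Pro-AGG-1-5 to 64.6 ± 7.39 at tRNA-Pro-AGG-1-6, a 13.7-fold range. In liver they ran from 10.6 ± 2.99 at tRNA-Pro-AGG-1-5 to 60.3 ± 22.2 at tRNA-Pro-AGG-1-4, a 5.7-fold range. The locus tRNA-Pro-AGG-1-4 was the least even of them across livers, at 79.6, 61.8, 83.8 and 37.4 in livers 1, 3, 22 and 24, a span that covered the 49.8 ± 5.99 of tRNA-Pro-AGG-1-6. The remaining 3 loci lay between 24.1 and 29.4 in brain and between 21 and 38.1 in liver. In the wild-type livers tabulated with the libraries labelled Phe31, tRNA-Pro-AGG-1-6 was instead the highest AGG locus in each. It measured 38.7, 43.0 and 27.6 there, on the scale of their own comparison, and tRNA-Pro-AGG-1-4 measured 17.3, 15.6 and 19.8.

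Of the 2 proline CGG loci, tRNA-Pro-CGG-1-2 measured 86.6 ± 11.2 in brain and 94.8 ± 4.97 in liver, while tRNA-Pro-CGG-1-3, with the same mature sequence, measured 11.4 ± 2.09 and 6.16 ± 2.00. Proline TGG held the highest member in brain, tRNA-Pro-TGG-1-1, at 112.7 ± 8.58, which stood at 82.6 ± 7.95 in liver. The 4 copies of TGG-2 ran from 15.0 ± 1.77 at tRNA-Pro-TGG-2-1 to 52.2 ± 3.01 at tRNA-Pro-TGG-2-4 in brain, and from 29.2 ± 6.11 to 81.6 ± 7.68, at the same loci, in liver. The lowest TGG loci were tRNA-Pro-TGG-3-1 (0.997 in brain and 0.997 in liver) and tRNA-Pro-TGG-4-1 (0.475 and 1.43).

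The tables give names without positions, so the genome context can be given by anticodon only, from RefSeq genes on GRCm38.p6, which carry other names. RefSeq lists 40 nuclear glycine and proline tRNA genes outside the CGG anticodon, each 71 to 72 bases long, and 9 of them lie within another gene. The authors called peaks of open chromatin by group and merged them into a consensus list per comparison, and a gene was counted when it shared at least 1 base with a peak. A peak covered 20 of the 40 genes (50.0%) in all 3 brain lists and 15 (37.5%) in all 3 liver lists, beside 56.1% and 43.7% of all 403 RefSeq tRNA genes. By anticodon, 7 of 14 GCC genes were covered in all brain lists and 3 in all liver lists. The corresponding counts were 2 and 1 of 6 for CCC, 1 and 1 of 7 for TCC, 5 and 5 of 6 for AGG and 5 and 5 of 7 for TGG. Peak lists carry no replicate error, and their differences were not tested.

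Neighbouring proline genes were covered together. On chromosome 7, n-TPtgg8 (chr7:98815415-98815486) and n-TPagg7 (chr7:98815676-98815747) lie 190 bases apart, and on chromosome 3, n-TPtgg7 (chr3:51358354-51358425) and n-TPagg5 (chr3:51359407-51359478) lie 982 bases apart. All 4 were under a peak in all 6 lists. On chromosome 1, 5 TCC and 4 GCC genes between bases 171037997 and 171102827 were under a peak in no list. The 1 TCC gene in all 6 lists was n-TGtcc6 (chr11:69041278-69041349), while 5 of the 7 TCC loci had reads in every library of both tissues, so the lack of a peak in these lists is not a lack of reads. The GCC genes n-TGgcc9 (chr3:84229011-84229081, within Trim2) and n-TGgcc11 (chr8:110630553-110630623, within Vac14) were under a peak in all 3 brain lists and in no liver list.

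Wild-type brain was set against wild-type liver to ask which of these loci differ between the tissues. Most tested members did: of the 23 with a mean level of at least 10, 7 were higher in brain and 9 higher in liver at an adjusted p under 0.05 in limma. Over all loci, 72.7% of 238 were called, 40.8% higher in brain and 31.9% higher in liver. The levels of the 2 tissues did not overlap at 10 of the 23 members, 5 in each direction, beside 63.0% of all tested loci. The median log2 difference (brain minus liver) was -0.14 over the members and 0.11 over all loci. Values for liver in the test came from wild-type livers 1, 3, 22 and 24, and a term for batch was in the fit. With livers 1 and 22 averaged, 16 members were again called, 15 of them shared. The wild-type brains (at least 20315 reads) were deeper than these livers (at most 9739), and the part of depth was not tested.

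**Figure D2:**
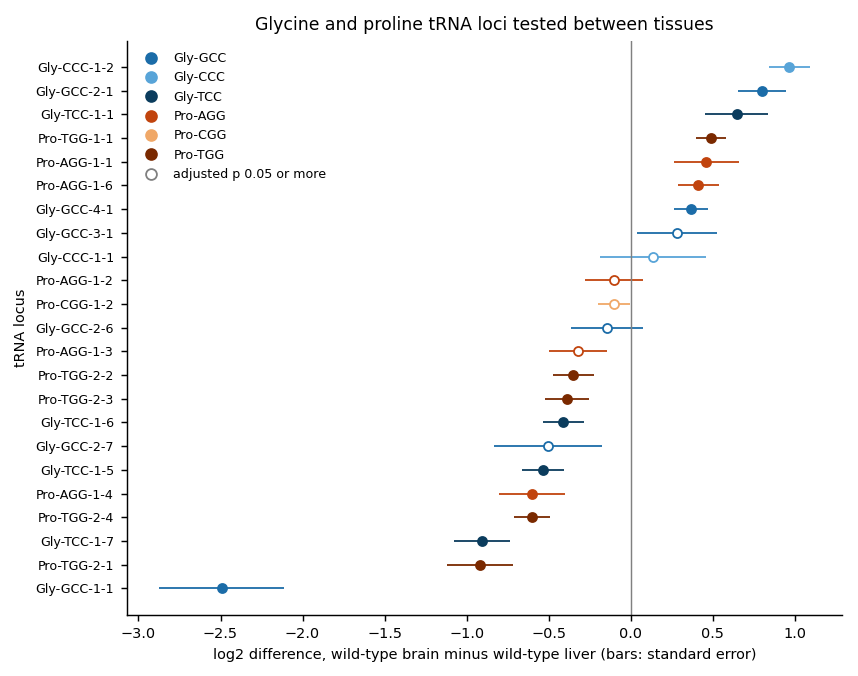
Log2 difference between wild-type brain and wild-type liver (x axis, log2 of normalised count plus 1, brain minus liver) for the 23 tested loci, with SE bars. Filled points passed an adjusted p of 0.05 in limma, and tRNA-Gly-GCC-1-1 lay farthest to the liver side at -2.49. That locus was over the filter on mean level through liver only (mean 24.3, brain 3.5).

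Higher in brain were tRNA-Gly-CCC-1-2, tRNA-Gly-GCC-2-1, tRNA-Gly-TCC-1-1, tRNA-Pro-TGG-1-1, tRNA-Pro-AGG-1-1, tRNA-Pro-AGG-1-6 and tRNA-Gly-GCC-4-1. The level of tRNA-Gly-CCC-1-2 was 64.0, 68.9, 56.9, 56.3 and 63.6 in brain and 35.0, 30.0, 26.3 and 32.9 in liver. No liver reached any brain, and the log2 difference was 0.97 ± 0.13 (SE; limma adjusted p = 6.9e-06). The differences of the other 6 were 0.80 ± 0.15 at tRNA-Gly-GCC-2-1, 0.65 ± 0.19 at tRNA-Gly-TCC-1-1, 0.49 ± 0.09 at tRNA-Pro-TGG-1-1, 0.46 ± 0.20 at tRNA-Pro-AGG-1-1, 0.41 ± 0.12 at tRNA-Pro-AGG-1-6 and 0.37 ± 0.10 at tRNA-Gly-GCC-4-1.

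Higher in liver were 1 GCC locus, 3 TCC loci, 1 AGG locus and 4 TGG loci. The level of tRNA-Gly-GCC-1-1 was 4.07, 3.83, 4.16, 2.90 and 2.52 in brain, from 29 reads, and 30.2, 13.1, 26.3 and 31.4 in liver, from 58 reads. The lowest liver was above the highest brain, and the log2 difference was -2.49 ± 0.38 (limma adjusted p = 3.5e-05). With a brain mean of 3.5 the locus was over the filter through liver only, and with no filter the adjusted p was 8.4e-04. The level of tRNA-Pro-TGG-2-1 was 14.6, 18, 14.6, 13.4 and 14.5 in brain and 30.2, 22.5, 31.1 and 34.4 in liver, again without overlap, at a log2 difference of -0.92. The other differences were -0.91 at tRNA-Gly-TCC-1-7, -0.60 at tRNA-Pro-TGG-2-4, -0.60 at tRNA-Pro-AGG-1-4, -0.53 at tRNA-Gly-TCC-1-5, -0.41 at tRNA-Gly-TCC-1-6, -0.39 at tRNA-Pro-TGG-2-3 and -0.35 at tRNA-Pro-TGG-2-2. With these livers all 4 copies of TGG-2 were higher in liver and tRNA-Pro-TGG-1-1 was higher in brain, but with the remaining wild-type livers the calls of tRNA-Pro-TGG-1-1 and tRNA-Pro-TGG-2-2 were lost.

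Of the 16 calls, 8 depended on the livers used. With the 3 wild-type livers of the remaining table in their place, the log2 difference was -0.28 at tRNA-Pro-AGG-1-1 (limma adjusted p = 0.229), 0.047 at tRNA-Pro-AGG-1-4 (0.812) and -0.34 at tRNA-Pro-AGG-1-6 (0.0397), each with the opposite sign. No longer called, with the same sign, were tRNA-Gly-TCC-1-1 (0.32, limma adjusted p = 0.170), tRNA-Gly-TCC-1-6 (-0.07, 0.663), tRNA-Gly-TCC-1-7 (-0.27, 0.264), tRNA-Pro-TGG-1-1 (0.09, 0.468) and tRNA-Pro-TGG-2-2 (-0.17, 0.417). That setting called 16 members, 6 higher in brain and 10 in liver, of which 8 were called in the same direction as before. Among these 8, the difference at tRNA-Gly-GCC-4-1 was 1.17 in place of 0.37. Leaving out 1 library took away the call of tRNA-Pro-AGG-1-1 (brain 1, 2 or 18, liver 1 or 22, adjusted p 0.0588 to 0.193), tRNA-Pro-AGG-1-4 (liver 1, 0.0633), tRNA-Pro-AGG-1-6 (liver 1, 0.0509), tRNA-Pro-TGG-2-2 (brain 1, 3, 16 or 18, liver 24, 0.0533 to 0.0877) and tRNA-Pro-TGG-2-3 (brain 18, 0.0620, or liver 3, 0.0503).

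By anticodon, the summed level differed between tissues without overlap for glycine CCC, glycine TCC and proline TGG. CCC summed to 79.0 ± 6.84 in brain and 47.5 ± 3.72 in liver. TCC summed to 221.7 ± 13.6 in brain and 292.0 ± 18.1 in liver, and TGG to 249.0 ± 10.6 and 286.2 ± 21.4. The sums of GCC (231.7 ± 9.31 and 222.2 ± 34.1), AGG (192.2 and 206.4) and CGG (98.1 and 101.0) overlapped between the tissues. These sums carry no test.

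Each knockout was then compared with wild type in the same table, to ask whether loss of 1 phenylalanine tRNA gene was accompanied by changes at glycine and proline loci. Levels in these comparisons are the normalised counts of that table, so they are not on the scale used above. The 3 brain comparisons share wild-type brains 1 and 3, and the Phe21 and Phe31 comparisons also share brain 2. The Phe11 and Phe21 liver comparisons share wild-type livers 1, 3 and 24. Results that share controls are therefore not independent.

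**Figure D3:**
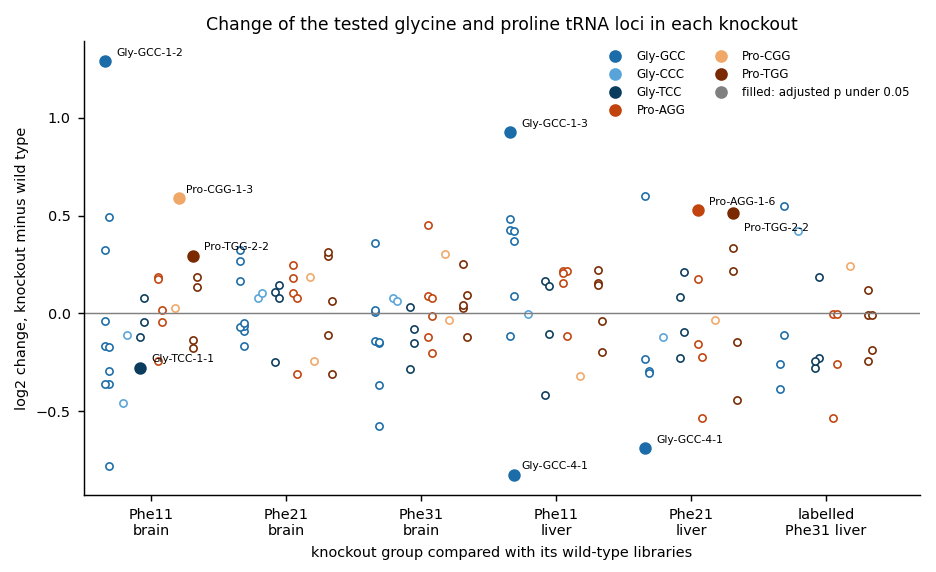
Log2 change from wild type at each tested glycine and proline locus (points, by comparison), with filled points for loci past an adjusted p of 0.05 in limma. The largest changes that passed were 1.29 at tRNA-Gly-GCC-1-2 in Phe11 brain and -0.82 at tRNA-Gly-GCC-4-1 in Phe11 liver. In Phe11 brain tRNA-Gly-GCC-1-2 was over the filter on mean level through the knockout only, with a wild-type mean under the filter. No locus passed in Phe21 brain, Phe31 brain or the livers labelled Phe31.

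In Phe11 brain 4 of the 28 tested members passed the test, 3 higher and 1 lower. Over all 263 loci tested 28.1% were called, 14.8% higher and 13.3% lower. The groups did not overlap at 6 members, beside 27.8% of all loci, and the median log2 change was -0.04 over the members and -0.01 over all loci. All 4 Phe11 brain libraries (25774 to 35565 reads) were deeper than their 4 wild-type libraries (20315 to 24351 reads), and the part of depth in the results was not tested.

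The locus tRNA-Gly-GCC-1-2 rose most in Phe11 brain. Its normalised count was 8.73, 5.11, 9.67 and 6.95 in wild-type brains 1, 3, 16 and 18 and 17.5, 21.2, 20.5 and 19.3 in Phe11 brains 5, 6, 13 and 14. Every knockout was above every wild type, on 18 to 29 reads against 4 to 9. The log2 change was 1.29 ± 0.30 (SE, n = 4 and 4; limma adjusted p = 0.00163). Its wild-type mean of 7.61 was under 10, so it was tested only because the knockout mean of 19.6 lifted it over the filter, and with no filter the adjusted p was 0.0192. Within batch 1 it was 1.40 (limma adjusted p = 0.182) and within batch 2 1.18 (0.0257), and a loess correction for level left 0.91 (0.0514). Of its copies, at tRNA-Gly-GCC-1-1, which was under the filter and not tested, wild-type brains measured 7.63, 7.67, 5.37 and 4.63 and Phe11 brains 13.6, 8.31, 17.7 and 10.5, without overlap. At tRNA-Gly-GCC-1-3, also over the filter only through its knockout mean (11.9 against 8.53), the groups overlapped, and the log2 change of 0.50 ± 0.36 did not pass (limma adjusted p = 0.299).

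The proline loci tRNA-Pro-CGG-1-3 and tRNA-Pro-TGG-2-2 also rose in Phe11 brain. The first measured 18.5, 24.3, 18.3 and 18.5 in wild type and 37.0, 25.8, 25.5 and 34.2 in Phe11, without overlap, a log2 change of 0.59 ± 0.19 (limma adjusted p = 0.0200). The second measured 57.8, 60.1, 62.3 and 69.5 in wild type and 78.8, 63.7, 77.8 and 88.7 in Phe11, where 1 knockout lay within the wild-type range, a log2 change of 0.30 ± 0.11 (limma adjusted p = 0.0414). Within batches 1 and 2 the changes were 0.52 and 0.65 at tRNA-Pro-CGG-1-3 (limma adjusted p = 0.330 and 0.0841) and 0.26 and 0.33 at tRNA-Pro-TGG-2-2 (0.362 and 0.111). Loess gave 0.31 at tRNA-Pro-CGG-1-3 (0.243) and 0.26 at tRNA-Pro-TGG-2-2 (0.0873), and DESeq2 on the recovered reads called neither (adjusted p = 0.196 and 0.199).

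The locus tRNA-Gly-TCC-1-1 fell in Phe11 brain, from 79.6, 83.1, 103.2 and 81.1 to 66.1, 65.5, 74.3 and 79.0. Knockouts and wild types did not overlap, but the closest pair was 79.6 and 79.0. The log2 change was -0.28 ± 0.10 (limma adjusted p = 0.0441), -0.30 within batch 1 and -0.25 within batch 2 (both adjusted p = 0.226). The call was lost with no filter on low values (0.0775), without trend (0.0551), without the batch term, with TMM (0.0686), equal totals or loess (0.0676), in edgeR (0.0577) and in DESeq2 (0.216), and it was kept with the other pseudocounts and the higher filter. The largest lower estimate that did not pass was at tRNA-Gly-GCC-2-3, from 17.8 ± 8.79 to 9.83 ± 4.4 (log2 -0.78 ± 0.34, limma adjusted p = 0.0826), over the filter through wild type. It passed without wild-type brain 18 (0.0125) or Phe11 brain 13 (0.0436).

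Apart from tRNA-Gly-GCC-1-2, which kept its call without any 1 library, these calls depended on single libraries. The call of tRNA-Gly-TCC-1-1 was lost without any 1 library but wild-type brain 18 (limma adjusted p 0.0667 to 0.138). That of tRNA-Pro-CGG-1-3 was lost without wild-type brain 1 or 18 or Phe11 brain 5 or 14 (0.0508 to 0.105), and that of tRNA-Pro-TGG-2-2 without wild-type brain 1, 16 or 18 or Phe11 brain 5, 13 or 14 (0.0560 to 0.145). The count was 2 without wild-type brain 1 or 16 and 1 without Phe11 brain 5. Other scalings changed the split of 3 higher and 1 lower to 4 and 0 (TMM, and equal totals over all tRNA loci) or to 0 and 3 (loess), where the loess calls were tRNA-Gly-CCC-1-1, tRNA-Gly-GCC-2-3 and tRNA-Gly-GCC-2-6.

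In Phe21 brain none of the 26 tested members passed the test in limma, and 0.0% of all 253 loci did. At an unadjusted p under 0.05 there were 5 members and 43 of all loci, and edgeR and DESeq2 on the recovered reads called 0 members. The groups did not overlap at 5 members, beside 24.1% of all loci. The estimate closest to the threshold was at tRNA-Pro-TGG-1-1, with 196.7, 177.7 and 209.0 in wild type and 229.3, 246.3 and 239.9 in Phe21, without overlap (log2 0.30, limma adjusted p = 0.062). It passed without Phe21 brain 7, the 1 library whose removal gave a call. The extremes were tRNA-Pro-AGG-1-2 at -0.31 ± 0.17 (adjusted p = 0.389) and tRNA-Gly-GCC-2-4 at 0.32 ± 0.21 (0.452).

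In Phe31 brain none of the 27 tested members passed the test in limma, while 0.775% of all 258 loci did, 0.0% higher and 0.775% lower. At an unadjusted p under 0.05 there were 2 members and 16 of all loci, and edgeR and DESeq2 again called 0 members. The groups did not overlap at 5 members, beside 11.2% of all loci. At tRNA-Pro-CGG-1-2 the wild-type values were 142.8, 143.1 and 142.5 and the Phe31 values 180.5, 164.5 and 184.5, without overlap (log2 0.30, limma adjusted p = 0.269). The extremes were tRNA-Gly-GCC-2-3 at -0.57 ± 0.46 and tRNA-Pro-AGG-1-5 at 0.45 ± 0.40 (both adjusted p = 0.931), and the second was over the filter through the knockout (mean 12.6, wild type 8.65).

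In Phe11 liver 2 of the 24 tested members passed, both glycine GCC loci, 1 lower and 1 higher. With wild-type livers 1 and 22, which enter this test as 2 samples, averaged as 1, the lower locus alone passed. Over all 207 loci 12.1% were called, 5.31% higher and 6.76% lower, and the groups did not overlap at 2 members and at 13% of all loci. The median log2 change was 0.15 over the members and 0.06 over all loci. Phe11 liver 21 was the deepest liver library, with 23754 reads.

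The locus tRNA-Gly-GCC-4-1 fell in Phe11 liver. It measured 43.8, 37.3, 40.2 and 33.9 in wild-type livers 1, 3, 22 and 24 and 15.3, 19.8, 25.7 and 26.8 in Phe11 livers 4, 6, 20 and 21. Every knockout was below every wild type, and the Phe11 mean of 21.9 ± 5.36 (n = 4) was 58% of the wild-type mean of 37.8 ± 4.06 (n = 3, livers 1 and 22 as 1). The log2 change was -0.82 ± 0.19 (limma adjusted p = 6.5e-04), -1.17 within batch 1 (0.0279) and -0.48 within batch 2 (0.262). The call held without any 1 of the 8 libraries and was lost with no filter on low values (0.0744). At this locus the wild-type liver sets differed: brain exceeded liver by 0.37 (log2) with these wild-type livers and by 1.17 with those of the remaining table, and the part of that difference in the knockout change was not tested.

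**Figure D4:**
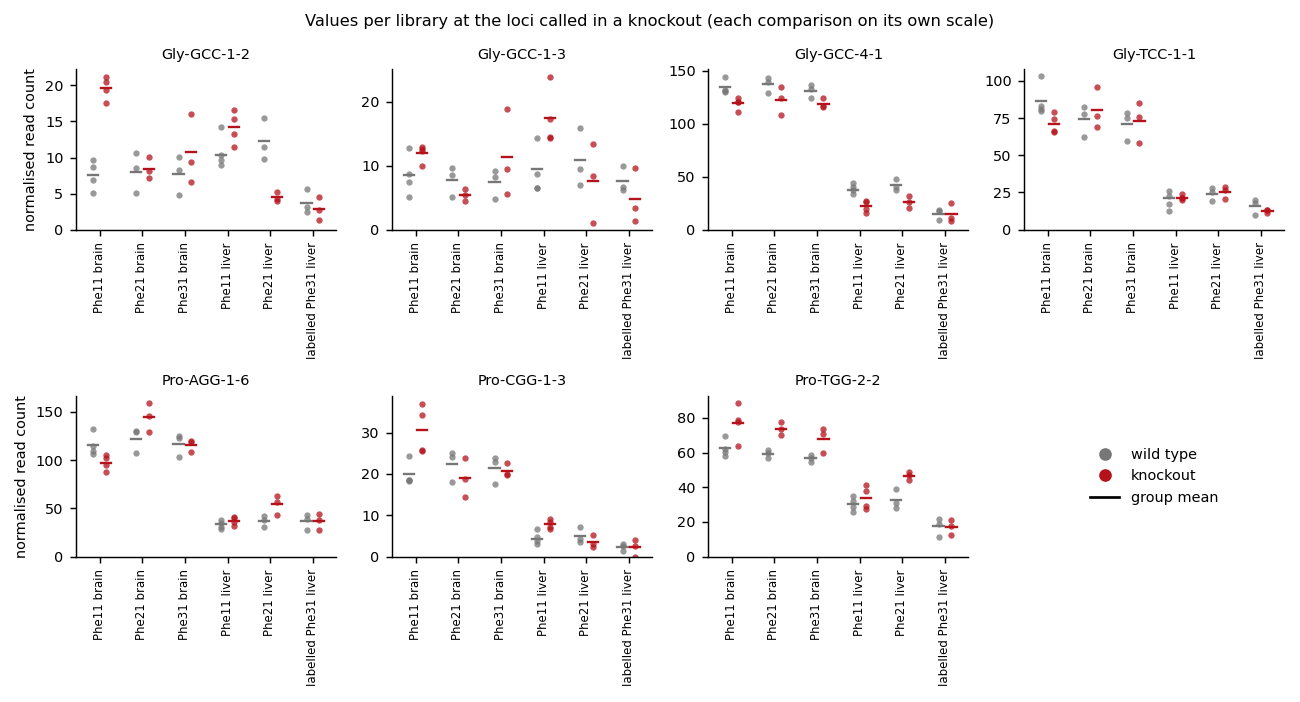
Normalised read counts by library (points, with the mean as a line) at the 7 glycine and proline loci called in a knockout comparison, wild type beside knockout in each of the 6 comparisons on its own scale. At tRNA-Gly-GCC-4-1 the knockout livers lay below all wild-type livers in Phe11 (15.3 to 26.8 against 33.9 to 43.8) and in Phe21 (20.5 to 31.4 against 37.6 to 47.7).

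The locus tRNA-Gly-GCC-1-3 passed the test as higher in Phe11 liver, from 8.76, 6.44, 6.44 and 14.4 in wild type to 14.3, 14.6, 23.9 and 17.3 in Phe11. The highest wild-type value (14.4, liver 24) was above the lowest knockout value (14.3, liver 4). Its wild-type mean of 9.48 was under 10, so it was tested only through the knockout mean of 17.5. The log2 change was 0.93 ± 0.29 (limma adjusted p = 0.0192, or 0.174 with no filter), 0.86 within batch 1 (0.419) and 1.00 within batch 2 (0.178). The call was also lost with wild-type livers 1 and 22 averaged (0.76, 0.107), with a loess correction (0.68, 0.145) and in DESeq2 (adjusted p = 0.266), and without wild-type liver 22 or Phe11 liver 4, 6 or 20 (0.0645 to 0.206). The count was 1 without wild-type liver 22, Phe11 liver 6 or Phe11 liver 20, and 3 without wild-type liver 1. At tRNA-Pro-CGG-1-2, which did not pass, the Phe11 livers spread from 38.1 to 78.7, around 57.0 to 68.9 in wild type.

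In Phe21 liver 3 of the 21 tested members passed, 2 proline loci higher and 1 glycine locus lower. Over all 201 loci 13.4% were called, 8.46% higher and 4.98% lower, and the groups did not overlap at 5 members and at 31.3% of all loci. The median log2 change was -0.12 over the members and 0.10 over all loci. All 3 Phe21 livers (11278 to 18575 reads) were deeper than the 3 wild-type livers (7895 to 9739 reads). Wild-type liver 24 was of batch 2 and the others of batch 1. Leaving out liver 24 was among the alternatives, and the part of depth and batch was not tested otherwise.

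The lower locus was again tRNA-Gly-GCC-4-1, at 47.7, 40.6 and 37.6 in wild-type livers 1, 3 and 24 and 20.5, 25.9 and 31.4 in Phe21 livers 7, 8 and 9. Every knockout was below every wild type, and the log2 change was -0.69 ± 0.20 (limma adjusted p = 0.00872). Without Phe21 liver 7 it was -0.53 (0.129), and the call was also lost with no filter (0.148) and in limma without trend (0.0599). The higher loci were tRNA-Pro-AGG-1-6, from 31, 37.8 and 42.2 to 42.7, 56.6 and 62.8 (0.53 ± 0.17, limma adjusted p = 0.0235), and tRNA-Pro-TGG-2-2, from 31, 28 and 38.7 to 48.7, 44.0 and 47.1 (0.51 ± 0.18, limma adjusted p = 0.0404). In both every knockout was above every wild type.

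The 2 proline calls in Phe21 liver were not made by edgeR on the recovered reads (adjusted p = 0.149 and 0.16). They were also lost without single libraries, namely wild-type liver 1 or 3 or Phe21 liver 8 or 9 for tRNA-Pro-AGG-1-6 (limma adjusted p 0.0625 to 0.218), and wild-type liver 3 or Phe21 liver 7, 8 or 9 for tRNA-Pro-TGG-2-2 (0.112 to 0.179). The count was 1 without any of wild-type liver 3 and Phe21 livers 7, 8 and 9. The split of 2 higher and 1 lower became 3 and 1 with TMM, 1 and 1 with equal totals and 0 and 1 with loess. Below the filter on mean level, and so not tested, tRNA-Gly-GCC-1-2 measured 15.5, 9.80 and 11.4 in wild type and 4.21, 3.93 and 5.23 in Phe21 liver, without overlap.

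In the livers labelled Phe31 none of the 19 tested members passed in limma. Over all 178 loci 10.7% were called, 1.69% higher and 8.99% lower. No member had an unadjusted p under 0.05, beside 32 of all loci, and edgeR and DESeq2 called 0 members. The groups did not overlap at 4 members, beside 23.6% of all loci. The libraries labelled Phe31 held 4719 to 5576 reads and their wild-type livers 7943 to 9329, and the part of depth was not tested. The extremes were tRNA-Pro-AGG-1-4 at -0.53 ± 0.29 (limma adjusted p = 0.336) and tRNA-Gly-GCC-2-6 at 0.55 ± 0.33 (0.370), the second over the filter through the knockout (mean 14.5, wild type 9.39). The check of the deleted locus went against the label of these libraries, so the gene lost in them is in doubt.

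Set side by side, the log2 change of tRNA-Gly-GCC-4-1 was -0.17, -0.17 and -0.15 in Phe11, Phe21 and Phe31 brain and -0.82, -0.69 and -0.11 in Phe11, Phe21 and labelled Phe31 liver. That of tRNA-Gly-TCC-1-6 was -0.12, -0.25 and -0.29 in brain and -0.41, -0.23 and -0.25 in liver, and passed in none of them in limma. That of tRNA-Pro-TGG-2-2 was 0.30, 0.31 and 0.25 in brain and 0.15, 0.51 and -0.01 in liver. The GCC loci tRNA-Gly-GCC-2-6 and tRNA-Gly-GCC-3-1 had estimates of opposite sign by tissue, none of which passed in limma, although tRNA-Gly-GCC-2-6 was called in Phe11 brain with loess. The first was at -0.36, -0.07 and -0.15 in brain and 0.48, 0.60 and 0.55 in liver, and the second at 0.32, 0.27 and 0.36 in brain and -0.11, -0.31 and -0.39 in liver. The brain comparisons share wild-type libraries, as do the Phe11 and Phe21 liver comparisons, while the livers labelled Phe31 have their own.

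Whether a change differed between tissues was tested for Phe11 and Phe21 as the change in liver minus the change in brain. For Phe11, 1 of 27 tested members passed, beside 9.31% of all 247 loci, and 5 members and 60 of all loci had an unadjusted p under 0.05. It was tRNA-Gly-GCC-4-1, with a difference of -0.69 ± 0.20 (limma adjusted p = 0.0305). With wild-type livers 1 and 22 averaged as 1 sample it was -0.69 (0.0387). Its call was lost without wild-type brain 1, 16 or 18, Phe11 brain 5, 13 or 14 or wild-type liver 1 (0.0525 to 0.0674), at differences of -0.68 to -0.59. Without Phe11 liver 4 the count was 2, with tRNA-Pro-CGG-1-2 added. The extremes were tRNA-Gly-GCC-1-2 at -0.86 (adjusted p = 0.190) and tRNA-Gly-GCC-2-6 at 0.82 (0.132).

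For Phe21 none of 25 tested members passed in limma, beside 7.92% of all 240 loci. There were 4 members and 51 of all loci at an unadjusted p under 0.05, and edgeR called 0. The fit has a batch term for liver, which leaves wild-type liver 24 without weight in the estimates. The difference at tRNA-Gly-GCC-4-1 was -0.60 ± 0.22 (adjusted p = 0.092), and it passed without wild-type liver 3, together with tRNA-Gly-TCC-1-5, and without Phe21 liver 9. The extremes were tRNA-Gly-GCC-3-1 at -0.79 (adjusted p = 0.322) and tRNA-Gly-GCC-2-6 at 0.84 (0.205).

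Summed by anticodon, most knockout levels overlapped with wild type. The sum over the 41 loci in the knockout was 97.6% (Phe11), 106.3% (Phe21) and 100.7% (Phe31) of wild type in brain. In liver it was 101.5% for Phe11, 96.8% for Phe21 and 99.1% for the libraries labelled Phe31. As a percent of wild type, the lowest GCC sum was that of Phe21 liver, 127.6 ± 4.93 against 169.1 ± 28.4 in wild type, or 75.4%, without overlap, beside 109.3% in Phe11 liver. The glycine sum of Phe21 liver, at 86.6%, was likewise below all wild types, as was its CCC sum at 88.3%. These sums are descriptions with no test.

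**Figure D5:**
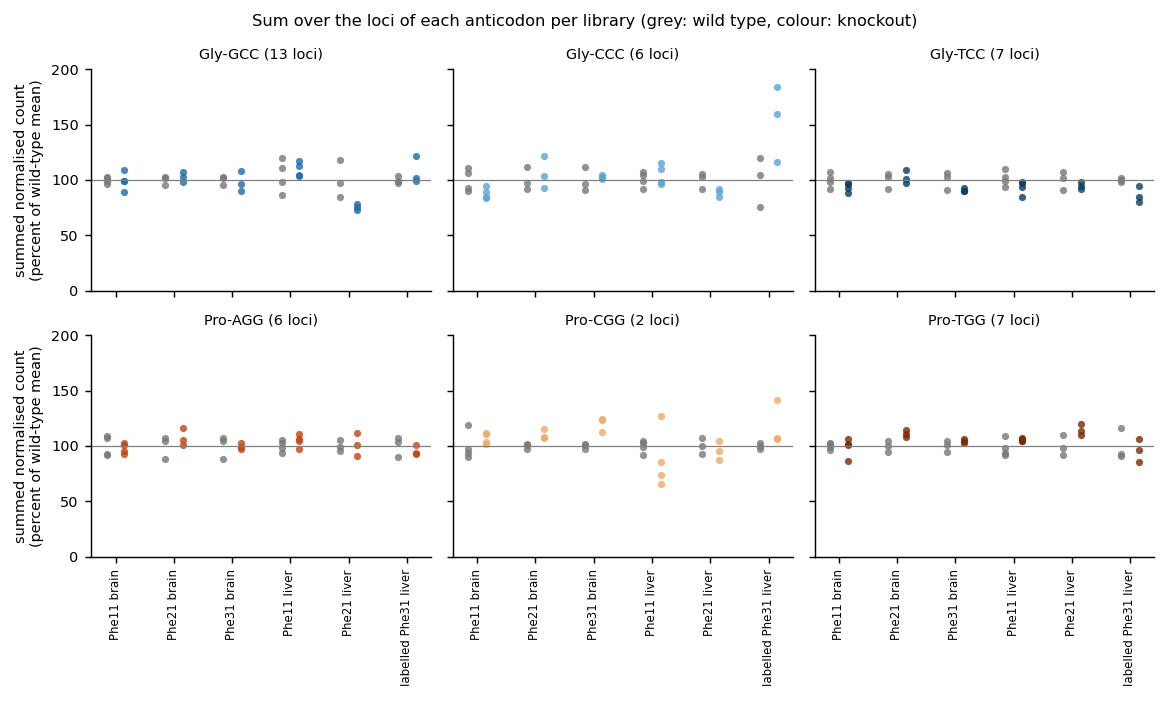
Summed normalised count of each anticodon in each library (points, wild type in grey and knockout in colour) as a percent of the wild-type mean of its comparison. As a mean, glycine GCC in Phe21 liver was at 75.4%, proline CGG in Phe31 brain at 120.1% and glycine CCC in the livers labelled Phe31 at 153.4%.

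In brain, the proline sums without overlap were higher in the knockout. In Phe21 brain CGG was at 110.3%, TGG at 111.2% and all proline loci together at 109.6% of wild type. The sum of all 41 loci was at 106.3% without overlap, or 103.5% with equal totals, and as a share of all tRNA reads the groups overlapped (7.54% in Phe21 brain 7 against 7.60% in wild-type brain 2). In Phe31 brain CGG was at 120.1% and all proline loci at 105.5%. In Phe11 brain the proline anticodons were at 97.8% (AGG), 107.0% (CGG) and 98.9% (TGG). In the livers labelled Phe31, CGG was at 118.3% and glycine TCC at 86.2%, each without overlap, and the glycine CCC sum of 153.4% rested on a wild-type mean of 16.5 over 6 loci.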

How the data were processed

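ATAC-seq libraries of mouse brain and liver were trimmed by the authors with Trim Galore 0.6.4, aligned to GRCm38.p6 with Bowtie2 2.4.1, keeping several alignments per read, and freed of duplicates with Picard 2.23.8. Nucleosome-free fragments of high mapping quality were counted with featureCounts 2.0.0 over tRNA genes with a short flank. The authors divided the counts by 1 DESeq2 size factor per library in each of the 6 tables, and this deposited signal is the normalised read count used here. Deposited peak positions (chromosome, start and end, with other columns) were consensus regions per comparison that the authors made with DiffBind 3.0.8 from Genrich 0.6 peaks of each group. Deposited columns of the authors' own comparisons (fold changes and p-values of DESeq2 and DiffBind) were not used.

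Each value was divided by what 1 read is worth in its library, which gave whole reads for 100% of values (tolerance 1e-06), although the check of step size was not possible in Phe11 brain 6, 13 and 14 and Phe31 brain 11. For wild-type tissues, these reads were scaled with median-of-ratios size factors over the wild-type libraries. The test was limma 3.58.1 with trend, in R 4.3.3, on log2(normalised count + 1), over all loci with a mean of at least 10, with Benjamini-Hochberg adjustment over all loci tested and a threshold of 0.05. A fold change on this scale understates the change of low loci. Batch was a term in the Phe11 and tissue fits. Alternatives were edgeR 4.0.16 and DESeq2 1.42.0 on recovered reads, other scalings, pseudocounts (0.1 and 10) and filters (none and 30), single batches and leaving out each library. The knockout fits were also run on simulated reads, drawn with the same dispersion at all loci and no batch effect, and no result rests on that run.

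Groups came from the labels. Replicates are separate samples by their labels, and p-values measure the spread between them, which may be technical. Wild-type livers 1 and 22 entered the tests as 2 samples, with their average as an alternative. The numbers in the column names of the labelled Phe31 liver table match no sample's label, so its columns were assigned by group. Named loci were, per anticodon, the 2 highest and the lowest in each tissue, each called locus, the largest change each way in each comparison, and loci without a read. Others named were chosen after their values were seen. The members and lists were chosen with earlier results of these data known. Same-numbered brain and liver libraries correlated at -0.008 and -0.049 (wild type 1 and 3), 0.153, 0.135 and 0.133 (Phe21) and 0.0005 (Phe11) over 252 loci, and numbers were not taken as pairs. A Pro-CGG locus is not reported here.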

Additional observations from a re-analysis of the deposited data

Results flagged for a closer look

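At tRNA-Gly-TCC-1-1, wild-type brain 16 of the Phe11 comparison stood far from the others of its group, at a normalised count of 103.2 where the other 3 lay between 79.6 and 83.1. At tRNA-Pro-CGG-1-3, wild-type brain 3 of the same comparison was at 24.3, where the others lay between 18.3 and 18.5. At tRNA-Pro-TGG-2-1, wild-type brain 2 was at 18 on the scale of the tissue comparison, where the other 4 lay between 13.4 and 14.6. These were 3 of 28 groups examined, and chance gives about 1 in 20. At tRNA-Gly-GCC-4-1 the change in Phe11 liver was lower than that in Phe11 brain by a log2 difference of -0.69 in limma (adjusted p = 0.0305), which is the 1 such difference that passed among the 27 members tested in Phe11 and the 25 tested in Phe21.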

How the results depend on the processing

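Among named loci, 614 values under an alternative kept their side of the threshold, 125 no longer passed, 3 newly passed and 3 reversed. Direction was compared only at loci called in the main fit. The 3 reversed were those of brain against liver with the livers of the remaining table: -0.28 at tRNA-Pro-AGG-1-1, 0.047 at tRNA-Pro-AGG-1-4 and -0.34 at tRNA-Pro-AGG-1-6. The number of members called in Phe11 brain (4) was 1 without a filter, 2 in limma without trend, 1 in DESeq2, 0 within batch 1 and 1 within batch 2, and 1 to 4 with 1 library left out. In Phe21 brain (0) it was 1 with TMM, and 0 to 1 with a library left out, while in Phe31 brain and the livers labelled Phe31 it was 0 in every alternative run. In Phe11 liver (2) it was 0 without a filter, 1 with a mean of at least 30, with loess, in DESeq2, within batch 1 and with livers 1 and 22 averaged, 0 within batch 2, and 1 to 3 with a library left out. In Phe21 liver (3) it was 0 without a filter and without trend, 1 with loess, edgeR or DESeq2, and 1 to 3 with a library left out. In brain against liver (16) it was 13 to 17 with a library left out, and a replicate block gave 7. With a library left out, the called differences between tissues ranged from 0 to 2 for Phe11 and for Phe21. Leaving out the batch term gave 0 for Phe21. Averaging livers 1 and 22 gave 1 for Phe11. Both alternatives were chosen after seeing the data.

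Of the sums, with TMM the Phe31 brain proline sum was 106.2% of wild type, the Phe21 liver sums 80.1% (GCC), 93.6% (CCC), 100.5% (TCC), 121.5% (TGG), 91.8% (glycine) and 102.7% (all), and the labelled Phe31 liver sums 89.9% (AGG), 93.4% (glycine) and 93.2% (all). With equal totals the Phe21 liver glycine sum was 84.2%, and the Phe11 liver sums were 108.2% (TGG) and 104.0% (all). No scaling moved the median of all loci by over 0.1 (log2). Causes were not tested. Depth was lowest in the livers labelled Phe31 (from 4719 reads over 401 loci), where 19 members could be tested.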
